A study of Mus musculus with 55 samples.

Results

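Oocytes of Dhx36 sko mice were compared with control oocytes in 2 sets of RNA sequencing libraries, and the question was which genes changed alike in both sets, in 1 set, or in opposite directions. The comparison used 12 libraries, chosen by their labels from 26 with gene counts (55 samples in the series). The first set held 3 libraries labelled control and 3 labelled Dhx36_sko. The second set held 2 libraries labelled c and 1 labelled c_DRB, taken as controls, against 1 labelled rhau-sko and 2 labelled rhau-sko with DRB. All genes were followed, and 16655 of 33924 passed a filter on low counts. The change is sko minus control on the log2 scale, fitted in each set, and the change in the first set minus that in the second is called the difference between sets.

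DHX36 (RHAU) is an RNA and DNA helicase known for resolving G-quadruplexes, folds in which guanines stack in planes. It binds messenger RNAs and is known to bear on their translation and turnover. Oocytes store transcripts for later use, so a transcript's level there depends on storage and decay as well as on synthesis. DRB is an inhibitor of CDK9, the kinase that releases paused RNA polymerase II.

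One collection text covers every sample and names growing oocytes of control and Dhx36fl/fl;SKO mice. It does not expand SKO, name a Cre driver, give the genotype of controls or give ages, and the DRB dose and time are not in the labels. The tissue is ovary, the cell type oocyte and the molecule polyA RNA. The titles give neither set a stage, so stage, experiment and library batch cannot be told apart behind a difference between sets. Nothing states that the libraries came from separate animals, so p-values measure the spread between these libraries, which may be technical. DRB was a term of the fit that takes its effect as equal in both genotypes, and it was present in 1 of 3 control and 2 of 3 sko libraries of the second set.

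The 12 libraries held 23010562 to 41075545 counts. A further pair of the second experiment, c_DRB replicate 4 and rhau_sko replicate 6, held 129192 and 127927 counts and was left out. The latter had 46.9 CPM of Dhx36 (counts scaled to a common library total, here without TMM), from 6 counts, which went against its sko label. Libraries of a group differed by 13.4 to 75.2 times sampling noise (chi-square per gene), so none was a copy of another. Oocyte marker genes took 5.05 to 5.16% of counts in first-set controls and 4.46 to 4.93% in first-set sko, against 2.32 to 2.63% and 1.83 to 1.86% in the second set, so the controls of the sets differed from each other. The scaling factors (TMM, which sets the bulk of genes level between libraries) also differed by genotype in the first set, at 0.6498 to 0.754 in controls and 0.808 to 0.828 in sko, but were 1.297 to 1.32 and 1.32 to 1.34 in the second. In bulk RNA, fewer cells of a type and less RNA per cell cannot be told apart.

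Dhx36 (mm9, chromosome 3, 62273961 to 62310926, minus strand) fell in both sets. It read 9.93, 10.6 and 14.4 CPM in the first-set controls and 3.74, 2.54 and 2.26 CPM in the first-set sko libraries. It read 36.04, 32.5 and 29.6 CPM in the second-set controls and 5.76, 3.305 and 4.26 CPM in the second-set sko libraries. Control and sko libraries did not overlap in either set, and the second-set controls lay above those of the first. The log2 change was -2.03 ± 0.22 (SE, adjusted p = 3.81e-07) in the first set and -2.77 ± 0.22 (SE, adjusted p = 1.57e-08) in the second. The difference between sets did not pass the threshold, at 0.74 ± 0.30 (SE, adjusted p = 0.115). These values come from the quasi-likelihood test of edgeR, with p-values adjusted over all tested genes after Benjamini and Hochberg, and a gene is called at an adjusted p under 0.05.

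The sets shared most of what was called in both, and a smaller part differed. In the first set 7818 genes were called, 24.6% of those tested being higher and 22.3% lower in sko. In the second set 6180 were called, 18.1% higher and 19% lower. Shared changes, called in both sets in the same direction, numbered 4090, which is 52.3% of first-set calls and 66.2% of second-set calls. They split into 12.3% of tested genes higher (2044 genes, median log2 change 1.65 in the first set and 1.40 in the second) and 12.3% lower (2046 genes, medians -0.96 and -0.83). Within them the difference was called for 471 genes, 376 with the larger change in the first set and 95 with the larger change in the second.

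The difference between sets was called for 2196 genes, 7.93% of those tested being more positive in the first set and 5.25% in the second. A change is termed limited to a set when it was called there, not in the other set, and the difference was called too. The first set had 1045 such genes (4.02% of tested genes higher, 2.25% lower) and the second 454 (1.29% higher, 1.44% lower). Opposite changes, called in both sets with opposite signs, numbered 194, or 4.53% of the 4284 genes called in both. Of the tested genes, 0.727% rose in the first set and fell in the second, and 0.438% fell in the first and rose in the second. A further 3931 genes were called in 1 set without a call of the difference, and count as neither shared nor limited. Across genes, the changes in the sets, which share no library, correlated with Pearson r = 0.605 and Spearman rho = 0.599, a description, since genes are not independent.

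Which side held more of the called differences depended on the scaling. The share more positive in the first set was 60.2% with TMM, 46.2% with RLE factors and 82.6% with library size alone. Leaving out any 1 of the 6 first-set libraries, with TMM, gave 44.8 to 46.8%. The share of first-set calls that were higher in sko was 52.5%, 47.5% and 67.6% under the 3 scalings, and the median difference over all genes 0.07, -0.03 and 0.25. Of the 194 opposite genes, 164 remained opposite with RLE factors and 144 with library size alone. Fewer remained when second-set libraries were changed. These were 91 without rhau_sko replicate 5, 94 without c_DRB replicate 3 and 82 with the shallow pair included. The larger side of the limited and opposite classes turned as well. Changes limited to the first set were 670 higher and 375 lower with TMM, 548 and 570 with RLE, 998 and 129 with library size alone, and 651 and 729 with DESeq2. Changes limited to the second set were 215 higher and 239 lower with TMM, 275 and 181 with RLE, 130 and 351 with library size alone, and 349 and 255 with DESeq2. Opposite genes higher and lower in the first set numbered 121 and 73 with TMM, 91 and 106 with RLE, 176 and 35 with library size alone, and 111 and 125 with DESeq2. Without any 1 first-set library they were 69 to 99 and 70 to 128, and changes limited to the first set 401 to 540 higher and 402 to 648 lower. The scatter of both changes shows the classes.

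**Figure D1:**
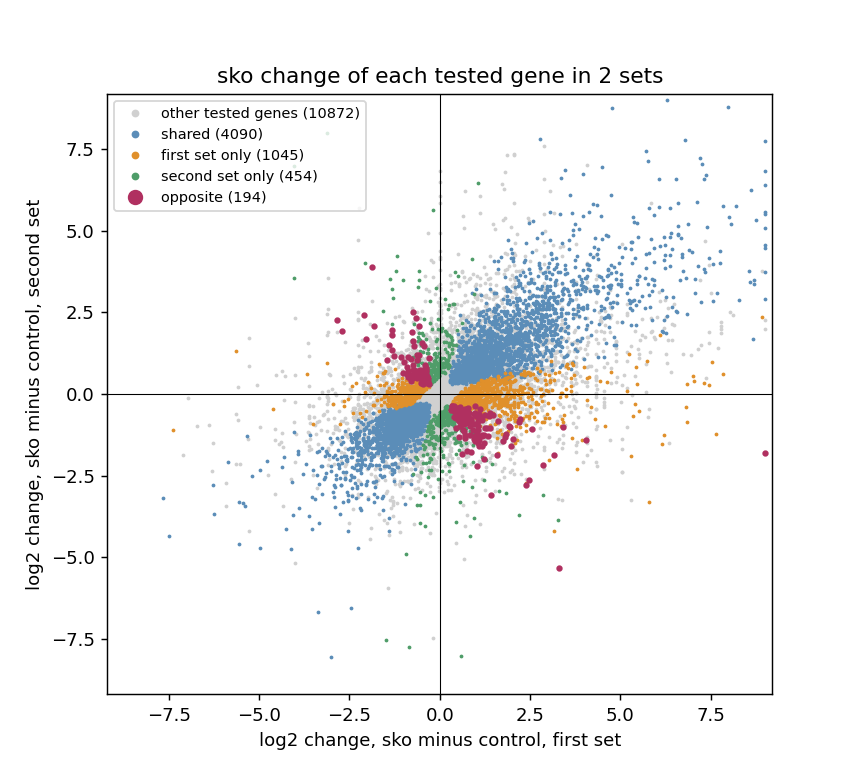
Each point is 1 of 16655 tested genes, with its log2 change (sko minus control) in the first set on the x axis and in the second set on the y axis, coloured by class. Shared genes fill the upper right and lower left, and the 194 opposite genes the other corners; 14 genes beyond 9 are drawn at the limit.

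Shared increases included Mt1, which was almost silent in the first-set controls but not in those of the second set. Mt1 encodes a metallothionein, a small protein that binds zinc and copper. It read 0, 0.04396 and 0.249 CPM in the first-set controls and 115, 135 and 137 CPM in the first-set sko libraries, the controls holding 7 counts in all. It read 4.49, 5.52 and 6.22 CPM in the second-set controls and 626, 633 and 656 CPM in the second-set sko libraries. Every sko library was above every control of either set, and the second-set sko libraries were above those of the first. The log2 change was 10.35 ± 0.30 (SE, adjusted p = 1.77e-14) in the first set and 6.83 ± 0.20 (SE, adjusted p = 2.62e-14) in the second. The difference of 3.51 ± 0.47 (SE, adjusted p = 7.24e-05) rests on the few counts of the first-set controls. Mt2, the neighbouring metallothionein gene, stayed at or under 0.713 CPM in all 12 libraries and was not called in either set. Mt4, another gene of this family, was a shared increase with log2 changes of 4.02 ± 0.27 (SE, adjusted p = 9.49e-10) and 2.31 ± 0.22 (SE, adjusted p = 1.35e-07).

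Metallothionein promoters are known for metal response elements, the sites of the zinc-sensing factor MTF1, whose core is TGCNCNC. The 250 bases before the starts of Mt1 and Mt2 are shown because 1 of these neighbours rose and the other was not detected above 1 CPM. They come from RefSeq (GRCm38.p6, not the build of the counts), with each core, on either strand, in capitals.
Mt1: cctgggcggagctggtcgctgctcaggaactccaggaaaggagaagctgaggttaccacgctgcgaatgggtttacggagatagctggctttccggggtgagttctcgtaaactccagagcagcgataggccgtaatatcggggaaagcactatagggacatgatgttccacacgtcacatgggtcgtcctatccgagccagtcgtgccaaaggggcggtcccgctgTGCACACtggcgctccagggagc
Mt2: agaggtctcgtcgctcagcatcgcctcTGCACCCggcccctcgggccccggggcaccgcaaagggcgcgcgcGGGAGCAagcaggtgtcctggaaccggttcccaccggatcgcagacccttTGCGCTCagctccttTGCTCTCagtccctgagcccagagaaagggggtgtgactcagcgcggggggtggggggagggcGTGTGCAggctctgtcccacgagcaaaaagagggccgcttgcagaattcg
The Mt1 window (chr8:94178839-94179088, plus strand) held 1 core and the Mt2 window (chr8:94172368-94172617, plus strand) 5. Of 32851 RefSeq windows of these 250 bases, 44.4% held at least 1. A match describes letters and is not a shown site, and letters past the start that RefSeq annotates are not shown. Cores past that start were not counted, so the 1 and 5 do not compare the whole promoters and are not set against the levels. Windows could be matched to 10621 of 16655 tested genes, under 80%. Motif shares by class were counted, but for that reason they are not reported and no conclusion is drawn from them.

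Other shared increases had no called difference. Tceal8, of the transcription elongation factor A-like family, read 1.76, 4.18 and 2.73 CPM in the first-set controls and 101, 49.9 and 27.97 CPM in the first-set sko libraries. It read 2.29, 5.16 and 2.19 CPM in the second-set controls and 50.2, 58.5 and 111 CPM in the second-set sko libraries. The groups were far apart in both sets, with log2 changes of 4.38 ± 0.46 (SE, adjusted p = 3.36e-07) and 4.44 ± 0.48 (SE, adjusted p = 8.87e-07), and the difference was not called (adjusted p = 0.975). Thbs4, the matrix protein thrombospondin 4, rose by 4.13 ± 0.21 (SE, adjusted p = 2.70e-11) and 3.95 ± 0.21 (SE, adjusted p = 9.66e-11). Krt25, a hair follicle keratin, rose by 3.22 and 3.90, Gpd2, the mitochondrial glycerol-3-phosphate dehydrogenase, by 3.82 and 3.17, and Il18rap, an interleukin 18 receptor subunit, by 3.13 and 2.98. None of these 4 had a called difference (adjusted p = 0.736, 0.0793, 0.105 and 0.777).

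A few shared increases differed in size. Ddx6, a helicase of mRNA storage granules, read 23.2, 16.6 and 17.9 CPM in the first-set controls and 71.4, 92.3 and 86.3 CPM in the first-set sko libraries. It read 22.8, 20.9 and 19.3 CPM in the second-set controls and 215, 325 and 252 CPM in the second-set sko libraries. From like control levels the rise was larger in the second set, with a difference of -1.48 ± 0.23 (SE, adjusted p = 3.39e-04). Kera, a proteoglycan known from the cornea, rose more in the first set (4.53 ± 0.20 SE, adjusted p = 4.92e-12 against 3.501 ± 0.19 SE, adjusted p = 1.67e-10), with a difference of 1.03 ± 0.26 (SE, adjusted p = 0.014). Plac1, best known from the placenta, read 6.41, 3.65 and 5.18 CPM in the first-set controls and 338, 338 and 211 CPM in the first-set sko libraries. It read 1.14, 0.9600 and 1.504 CPM in the second-set controls and 42.2, 27.3 and 21.97 CPM in the second-set sko libraries, and its difference was 1.11 ± 0.36 (SE, adjusted p = 0.0477). The call of the difference was lost for Kera in 6 and for Plac1 in 13 of 23 alternative analyses.

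Shared decreases were led by Ubash3b, a phosphatase of receptor signalling. It read 24.02, 29.8 and 29.7 CPM in the first-set controls and 3.46, 1.29 and 2.95 CPM in the first-set sko libraries. It read 99.2, 84.5 and 77.4 CPM in the second-set controls and 8.77, 8.75 and 10.1 CPM in the second-set sko libraries. The log2 changes were -3.44 ± 0.24 (SE, adjusted p = 1.36e-09) and -3.21 ± 0.23 (SE, adjusted p = 4.69e-09), and the difference was not called (adjusted p = 0.701). Nfil3, a bZIP transcription factor, read 606, 574 and 432 CPM in the first-set controls and 129, 79.96 and 86.8 CPM in the first-set sko libraries. It read 80.7, 95.5 and 106 CPM in the second-set controls and 16.4, 15.6 and 20.7 CPM in the second-set sko libraries. Its controls lay higher in the first set than in the second, and its log2 changes were -2.45 and -2.48. Krt12, a keratin of the cornea, fell in both sets (-2.67 and -2.40), as did Znfx1, a zinc finger protein with a helicase domain (-2.80 and -2.17). Rabl5, of the intraflagellar transport machinery, had -2.07 and -1.99, and Xlr3b, an X-linked gene of a multicopy family whose reads may be split among copies, -2.85 and -2.01. Krt12 and Znfx1 overlap genes on the opposite strand, and the strand setting of the counting is not known from the sources used here, so both are uncertain.

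Opposite changes included 3 components of the splicing machinery. Cdc5l (mm9, chromosome 17, 45528841 to 45570656, minus strand) encodes a core member of the Prp19 complex, which acts in the catalytic spliceosome. It read 41.2, 43.1 and 29.7 CPM in the first-set controls and 123, 133 and 188 CPM in the first-set sko libraries. It read 176, 165 and 132 CPM in the second-set controls and 65.3, 55.4 and 20.1 CPM in the second-set sko libraries. The sko libraries were above all controls in the first set and below all controls in the second. The log2 change was 1.96 ± 0.26 (SE, adjusted p = 4.47e-06) in the first set and -1.59 ± 0.26 (SE, adjusted p = 9.07e-05) in the second, a difference of 3.55 ± 0.37 (SE, adjusted p = 4.85e-06). Over all alternative analyses the difference ranged from 3.25 to 3.88 and kept its call.

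Crnkl1 (mm9, chromosome 2, 145743215 to 145760750, minus strand), another spliceosome protein, read 137, 138 and 137 CPM in the first-set controls and 239, 200.2 and 304 CPM in the first-set sko libraries. It read 273, 342 and 256 CPM in the second-set controls and 82.9, 82.1 and 78.6 CPM in the second-set sko libraries. Again the groups did not overlap, with changes of 0.85 ± 0.14 (SE, adjusted p = 4.77e-05) and -1.78 ± 0.15 (SE, adjusted p = 3.79e-08) and a difference of 2.63 ± 0.20 (SE, adjusted p = 2.23e-07). A gene on the opposite strand overlaps Crnkl1, so its value is uncertain. Aqr, a helicase of the spliceosome, moved the same way by less, 0.56 ± 0.16 (SE, adjusted p = 0.00593) and -0.48 ± 0.16 (SE, adjusted p = 0.0253). Its second-set change was -0.12 without the DRB libraries and -0.87 with DRB libraries only, and the call was lost in 6 of 23 alternatives.

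Since DHX36 is known for G-quadruplexes, the 250 bases before the starts of Cdc5l and Crnkl1, which moved together, are shown with any stretch of 4 runs of at least 3 G with gaps of 1 to 7 bases in capitals. A stretch on the other strand appears as runs of C. The sequences are from RefSeq (GRCm38.p6).
Cdc5l: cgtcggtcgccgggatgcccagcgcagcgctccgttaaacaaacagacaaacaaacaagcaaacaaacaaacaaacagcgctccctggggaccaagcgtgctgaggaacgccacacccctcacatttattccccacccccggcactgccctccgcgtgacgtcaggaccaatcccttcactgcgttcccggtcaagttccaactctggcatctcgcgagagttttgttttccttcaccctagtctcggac
Crnkl1: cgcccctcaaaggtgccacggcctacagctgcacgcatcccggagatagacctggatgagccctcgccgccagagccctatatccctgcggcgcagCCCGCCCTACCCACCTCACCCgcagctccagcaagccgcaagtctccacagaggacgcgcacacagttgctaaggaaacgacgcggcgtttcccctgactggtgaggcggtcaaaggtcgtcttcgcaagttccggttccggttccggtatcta
The Crnkl1 window (chr2:145934701-145934950, minus strand) held 1 such stretch, on the strand opposite the gene, and the Cdc5l window (chr17:45433708-45433957, minus strand) 0. Of all RefSeq windows of these 250 bases, 16.7% held one. This concerns DNA before the start, not the transcript.

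Patl2, an RNA-binding repressor of translation in oocytes, also rose in the first set and fell in the second. It read 93.2, 72.2 and 68.3 CPM in the first-set controls and 190.0, 145 and 153 CPM in the first-set sko libraries. It read 88.7, 72.00 and 89.1 CPM in the second-set controls and 41.8, 40.1 and 45.7 CPM in the second-set sko libraries. The controls of both sets overlapped, and the sko libraries lay on either side of them, with a difference of 2.06 ± 0.21 (SE, adjusted p = 4.85e-06). Cd7, known as a T cell surface protein, read 28.6, 20.6 and 16.9 CPM in the first-set controls and 43.5, 49.8 and 36.1 CPM in the first-set sko libraries. It read 61.6, 65.5 and 72.2 CPM in the second-set controls and 23.3, 24.9 and 29.3 CPM in the second-set sko libraries, with a difference of 2.40 ± 0.25 (SE, adjusted p = 4.85e-06), and is uncertain for an overlapping opposite-strand gene. Gpr19, an orphan receptor, had changes of 1.07 and -0.84, and Zbtb1, a zinc finger transcription factor, of 0.86 and -0.77. Eif1a, whose gene family is used as a marker of genome activation in the embryo, had 1.34 ± 0.29 (SE, adjusted p = 9.82e-04) and -1.28 ± 0.32 (SE, adjusted p = 0.00352). The second-set change of Eif1a ranged from -2.18 to -0.42 over the alternatives, and its call was lost in 3 of 23.

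Bfsp1, a filament protein known from the lens, had the reverse order. It read 44.7, 68.01 and 57.6 CPM in the first-set controls and 36.96, 37.5 and 33.6 CPM in the first-set sko libraries. It read 12.8, 14.97 and 11.6 CPM in the second-set controls and 60.9, 83.2 and 51.4 CPM in the second-set sko libraries. Its difference was -2.98 ± 0.26 (SE, adjusted p = 1.30e-06). Ubqln1, which brings ubiquitinated proteins to the proteasome, read 126, 142 and 151 CPM in the first-set controls and 86.2, 83.7 and 103 CPM in the first-set sko libraries. It read 89.3, 95.7 and 103 CPM in the second-set controls and 194, 203 and 214 CPM in the second-set sko libraries, a difference of -1.66 ± 0.17 (SE, adjusted p = 4.85e-06). Glce, an enzyme of heparan sulfate synthesis, fell in the first set and rose in the second, with a difference of -1.36 ± 0.17 (SE, adjusted p = 4.33e-05). Atp5c1, a subunit of ATP synthase, did so with -1.16 ± 0.16 (SE, adjusted p = 1.17e-04). Glmn, a regulator of cullin ubiquitin ligases (difference -1.66), and Agxt2l2 (difference -1.52) followed the same order, but overlap Rpap2 and Hnrnpab on the opposite strand. The plots of opposite genes by library show 8 of these.

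**Figure D2:**
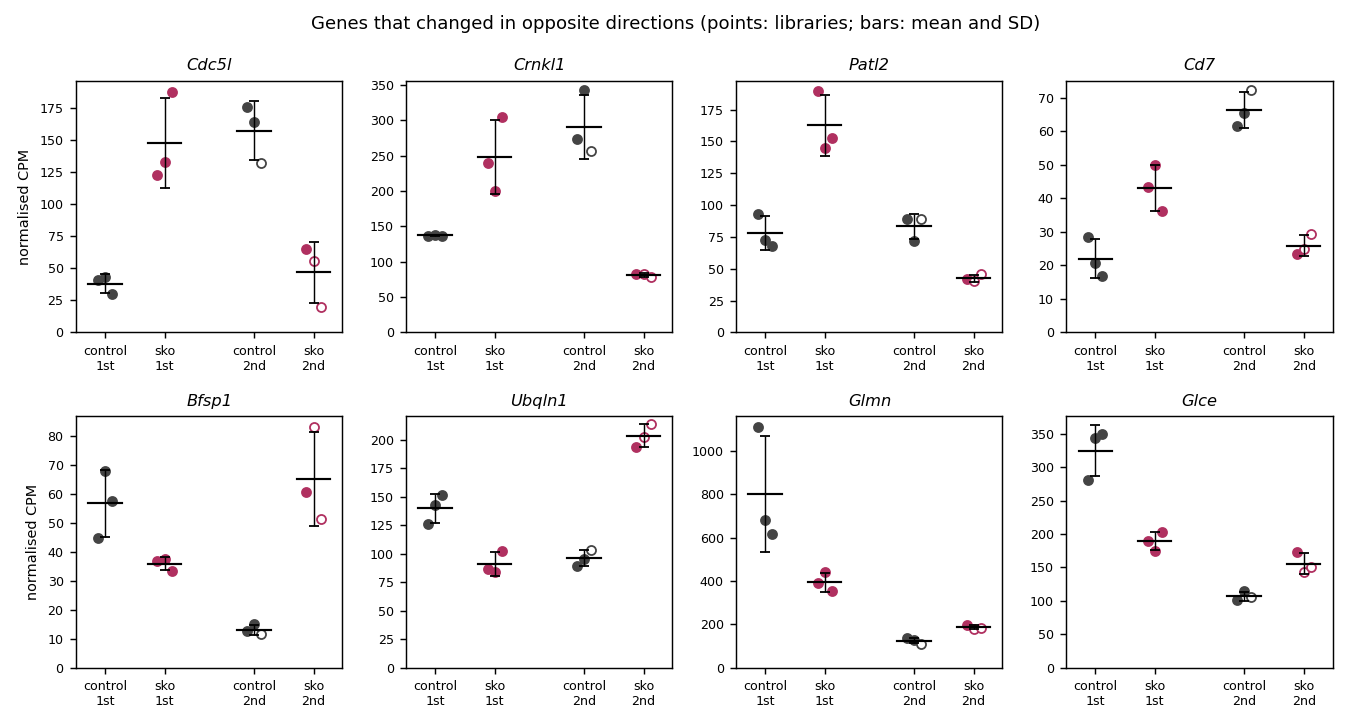
Normalised CPM (y axis) of 8 genes with opposite changes, in control and sko libraries of the first and second sets (x axis). Filled points are libraries without DRB, open points libraries with DRB, and bars the mean and SD of 3 libraries. The control and sko points of a set do not overlap, and sko lies above control in one set and below it in the other.

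Uqcrc1 and Ppif were among the increases limited to the first set. Uqcrc1, a core subunit of respiratory complex III, read 9.26, 9.36 and 8.78 CPM in the first-set controls and 74.2, 63.7 and 74.4 CPM in the first-set sko libraries. It read 42.1, 42.5 and 37.7 CPM in the second-set controls and 51.00, 44.4 and 52.1 CPM in the second-set sko libraries. The second-set groups did not overlap either, but their change was small, 0.31 ± 0.13 (SE, adjusted p = 0.0642), against 2.95 ± 0.13 (SE, adjusted p = 7.01e-12) in the first set, and the difference was 2.64 ± 0.18 (SE, adjusted p = 1.75e-07). Ppif, cyclophilin D of the permeability transition pore, read 7.72, 7.47 and 6.79 CPM in the first-set controls and 41.7, 38.9 and 42.1 CPM in the first-set sko libraries. It read 17.4, 17.98 and 16.00 CPM in the second-set controls and 20.3, 15.9 and 20.4 CPM in the second-set sko libraries, and its difference was 2.29 ± 0.21 (SE, adjusted p = 1.54e-06). In both genes the first-set controls were the lowest of the 4 groups and the first-set sko libraries the highest.

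Zfp707 and Cct6a also had their lowest levels in the first-set controls and their highest in the first-set sko libraries. Zfp707, a zinc finger protein, read 8.54, 6.73 and 4.76 CPM in the first-set controls and 52.6, 42.6 and 48.4 CPM in the first-set sko libraries. It read 13.2, 13.3 and 13.9 CPM in the second-set controls and 14.01, 10.5 and 8.63 CPM in the second-set sko libraries, and the difference was 3.07 ± 0.28 (SE, adjusted p = 1.54e-06). Cct6a, a subunit of the chaperonin that folds actin and tubulin, read 4.72, 4.48 and 2.53 CPM in the first-set controls and 30.6, 26.5 and 27.7 CPM in the first-set sko libraries. It read 17.7, 15.7 and 11.9 CPM in the second-set controls and 13.7, 14.6 and 13.6 CPM in the second-set sko libraries, and the difference was 2.87 ± 0.29 (SE, adjusted p = 4.85e-06). Lmf1, which is needed for lipases to mature, rose in the first set by 2.06 ± 0.38 (SE, adjusted p = 1.98e-04). Its second-set sko libraries ranged from 2.91 CPM without DRB to 24.3 CPM with DRB, and its difference (2.35 ± 0.58 SE, adjusted p = 0.0116) was lost in 4 alternatives.

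Among genes activated by p53, the transcription factor of the DNA damage response, 5 increases were shared by both sets and 3 were limited to the first set. Of 24 tested, 9 rose and 4 fell in the first set, and 5 rose and 3 fell in the second, with median changes of 0.48 and -0.14 (all genes 0.04 and -0.04). As shares, 37.5% rose and 16.7% fell in the first set, and 20.8% rose and 12.5% fell in the second, against 24.6%, 22.3%, 18.1% and 19% over all genes. Btg2, an antiproliferative cofactor of deadenylation, read 18.4, 26.3 and 21.2 CPM in the first-set controls and 135, 114 and 89.9 CPM in the first-set sko libraries. It read 15.5, 14.02 and 15.5 CPM in the second-set controls and 9.34, 10.7 and 21.3 CPM in the second-set sko libraries, with a difference of 2.67 ± 0.32 (SE, adjusted p = 3.15e-05). Mdm2, the ubiquitin ligase that restrains p53, read 131, 129.7 and 103 CPM in the first-set controls and 525, 477 and 337 CPM in the first-set sko libraries. It read 102, 103 and 92.1 CPM in the second-set controls and 98.6, 76.2 and 142 CPM in the second-set sko libraries, with a difference of 1.79 ± 0.28 (SE, adjusted p = 2.90e-04). For both genes the second-set sko libraries reached below and above their controls. Aen, a nuclease of apoptosis, had a difference of 1.70 ± 0.46 (SE, adjusted p = 0.0196). Bax, which promotes apoptosis, was a shared decrease (-1.40 ± 0.19 SE, adjusted p = 6.25e-06 and -1.07 ± 0.20 SE, adjusted p = 3.61e-04).

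Decreases limited to the first set included Nhedc1, a sodium/hydrogen exchanger. It read 83.9, 81.8 and 80.5 CPM in the first-set controls and 22.9, 27.1 and 33.8 CPM in the first-set sko libraries. It read 26.3, 22.8 and 26.7 CPM in the second-set controls and 30.9, 34.96 and 26.1 CPM in the second-set sko libraries. The first-set sko libraries lay in the range of the second set, with a difference of -1.82 ± 0.22 (SE, adjusted p = 2.54e-05). Mtss1, which binds actin and membranes, had a difference of -1.55 ± 0.22 (SE, adjusted p = 1.35e-04). Sap30, of the Sin3 corepressor, had -1.52 ± 0.27 (SE, adjusted p = 0.00114). Ptprj, a receptor phosphatase, and Zfyve9, which anchors SMAD proteins, had -1.49 and -1.45 (adjusted p = 9.66e-04 and 3.57e-04).

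Increases limited to the second set included Dcdc2a, a microtubule-binding protein. It read 15.3, 12.7 and 10.9 CPM in the first-set controls and 14.7, 18.1 and 13.2 CPM in the first-set sko libraries. It read 6.41, 5.67 and 6.18 CPM in the second-set controls and 34.1, 42.96 and 39.4 CPM in the second-set sko libraries. The first-set groups overlapped and those of the second did not, with a difference of -2.37 ± 0.25 (SE, adjusted p = 4.85e-06). Nubpl, an assembly factor of respiratory complex I, read 63.7, 52.9 and 69.6 CPM in the first-set controls and 59.98, 66.5 and 77.7 CPM in the first-set sko libraries. It read 22.2, 27.97 and 22.3 CPM in the second-set controls and 88.4, 97.5 and 87.9 CPM in the second-set sko libraries, and its difference was -1.80 ± 0.21 (SE, adjusted p = 1.66e-05). Pla2g15, a lysosomal phospholipase, had a difference of -2.21 ± 0.27 (SE, adjusted p = 3.25e-05), and Arntl2, a clock transcription factor, of -2.05 ± 0.29 (SE, adjusted p = 1.52e-04). Fam124a had -1.95 ± 0.27 (SE, adjusted p = 1.23e-04).

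Decreases limited to the second set included Ctsb, the lysosomal protease cathepsin B. It read 76.8, 64.1 and 57.8 CPM in the first-set controls and 76.5, 66.6 and 60.6 CPM in the first-set sko libraries. It read 65.7, 63.1 and 58.5 CPM in the second-set controls and 25.7, 15.7 and 25.3 CPM in the second-set sko libraries. The second-set sko libraries lay below all others, with a difference of 1.45 ± 0.23 (SE, adjusted p = 3.57e-04), but Ctsb overlaps Fdft1 on the opposite strand. Znrf3, a ubiquitin ligase that removes Wnt receptors, read 69.8, 66.00 and 36.2 CPM in the second-set controls and 21.1, 15.8 and 14.7 CPM in the second-set sko libraries, and its difference was 1.58 ± 0.22 (SE, adjusted p = 1.40e-04). Htatip2, a short-chain dehydrogenase-like protein, had 1.42 ± 0.29 (SE, adjusted p = 0.00332). Tex19.1, a germ cell gene known for restraining retrotransposons, had 1.27 ± 0.27 (SE, adjusted p = 0.00418). Cxcr3, a chemokine receptor, had 1.42 ± 0.37 (SE, adjusted p = 0.0151), a call lost in 6 alternatives.

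**Figure D3:**
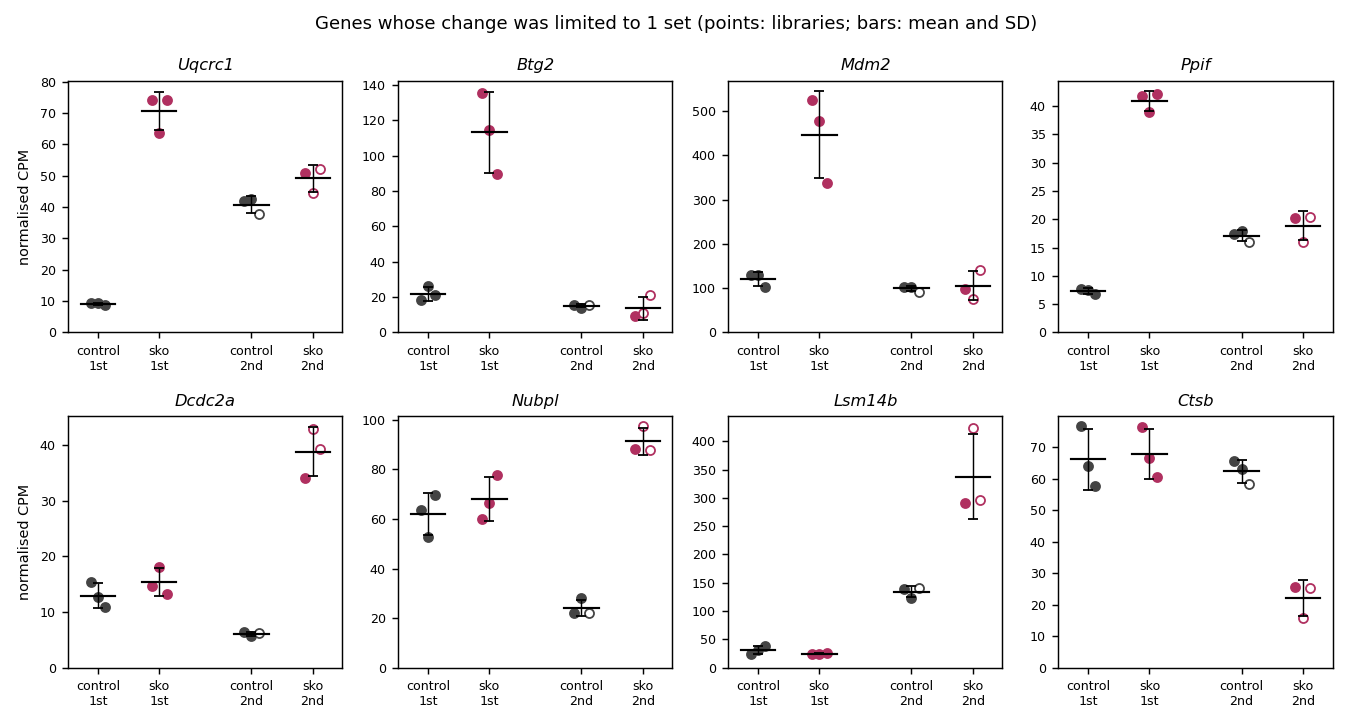
Normalised CPM (y axis) of 8 genes whose change was limited to 1 set, in control and sko libraries of both sets (x axis). Filled points are libraries without DRB, open points libraries with DRB, and bars the mean and SD of 3 libraries. Uqcrc1, Btg2, Mdm2 and Ppif (top) changed in the first set, and Dcdc2a, Nubpl, Lsm14b and Ctsb (bottom) in the second; Uqcrc1 also has a small gap between the second-set groups.

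Transcripts of the mitochondrial genome, which encode respiratory chain subunits, rose in the second set. Of 13 tested, 10 rose there and the other 3 did not pass, while in the first set 1 rose and 3 fell. The first-set counts depended on scaling: those that rose numbered 1, 0 and 1 and those that fell 3, 5 and 1 with TMM, RLE and library size alone. The difference was more positive in the second set for 10 under each of these scalings. The median change was -0.45 in the first set and 1.47 in the second, against 0.04 and -0.04 over all genes. mt-Nd4, of complex I, read 365, 325 and 331 CPM in the first-set controls and 267, 273 and 209.8 CPM in the first-set sko libraries. It read 22.9, 24.8 and 26.9 CPM in the second-set controls and 56.5, 63.2 and 111 CPM in the second-set sko libraries. Every first-set library lay above every second-set library, and the difference was -1.92 ± 0.25 (SE, adjusted p = 5.33e-05). mt-Nd6 had -2.17 ± 0.28 (SE, adjusted p = 5.33e-05), but overlaps mt-Nd5 on the opposite strand. mt-Nd4 overlaps mt-Nd4l on its own strand.

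Mitochondrial transcripts took 0.796 to 0.944% of counts in first-set controls and 0.829 to 1.08% in first-set sko, 0.126 to 0.1703% in second-set controls and 0.302 to 0.633% in second-set sko libraries. In the shallow pair of libraries they took 5.92% (c_DRB replicate 4) and 9.41% (rhau_sko replicate 6), and with that pair in the fit the differences of mt-Nd4 and mt-Nd6 were no longer called (adjusted p = 0.806 and 0.827). Their size moved little: over all alternatives, that one included, the difference was -2.14 to -1.68 for mt-Nd4 and -2.46 to -2.01 for mt-Nd6. The first-set fall of mt-Nd4 (-0.45 ± 0.16 SE, adjusted p = 0.0317) lost its call in 6 alternatives. Total RNA and the capture of mitochondrial RNA were not measured, and their part in the result was not tested. The plot of the 13 transcripts shows both changes.

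**Figure D4:**
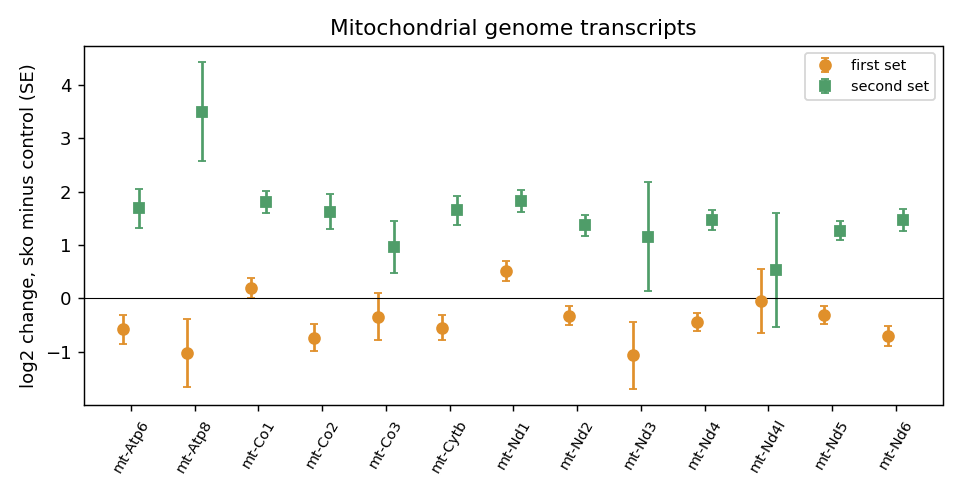
Log2 change (sko minus control, y axis), with SE, of the 13 tested mitochondrial transcripts (x axis) in the first and the second set. The second-set change was positive for each, and called for 10, while in the first set mt-Nd1 was called higher and mt-Co2, mt-Nd4 and mt-Nd6 lower.

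Genes of the egg coat and of sperm binding fell in part in both sets. Of 9 tested (median log2 changes -0.60 and -0.52 in the first and second sets, 0.04 and -0.04 over all genes), 4 fell and 1 rose in the first set, and 6 fell in the second. Medians of later gene lists are given in the same order. Over all tested genes, 24.6% rose and 22.3% fell in the first set, and 18.1% rose and 19% fell in the second. In both sets, 12.3% rose and 12.3% fell. The difference was more positive in the first set for 7.93% and in the second for 5.25%. Counts of this and the other gene lists under TMM are to be read beside these shares, which move with scaling. With RLE, 3780 of 7960 first-set calls over all genes were higher in sko, and 3142 of 6128 second-set calls. With library size alone these were 5178 of 7657 and 3053 of 5977. The number that fell in the first set was 4, 6 and 4 under TMM, RLE and library size alone. Zp3, a glycoprotein of the coat, fell in both (-0.60 ± 0.12 SE, adjusted p = 2.98e-04 and -1.14 ± 0.12 SE, adjusted p = 8.24e-07), and its difference (0.54 ± 0.17 SE, adjusted p = 0.0405) was lost in 17 of 23 alternatives. Zp1 and Zp2, of the same coat, were limited to the second set, with differences of 0.95 ± 0.20 (SE, adjusted p = 0.00452) and 0.69 ± 0.19 (SE, adjusted p = 0.0236). Cd9, a membrane protein needed for sperm-egg fusion, rose in the first set and read 519, 462 and 433 CPM in the first-set controls and 1044, 1129.8 and 1031 CPM in the first-set sko libraries. It read 351, 306 and 303 CPM in the second-set controls and 306, 319 and 317 CPM in the second-set sko libraries, a difference of 1.197 ± 0.16 (SE, adjusted p = 8.31e-05). Folr4 (Juno), the sperm receptor of the egg membrane, read 912, 874 and 705 CPM in the first-set controls and 176, 164 and 142 CPM in the first-set sko libraries. It read 76.2, 83.7 and 109 CPM in the second-set controls and 40.8, 33.9 and 43.9 CPM in the second-set sko libraries, so it fell in both sets and by more in the first (difference -1.14 ± 0.20 SE, adjusted p = 0.0011).

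Of 12 genes of growth factors and follicle communication (medians -0.17 and -0.68), 4 fell and 1 rose in the first set, and 7 fell in the second. Gdf9, the growth factor by which the oocyte acts on granulosa cells, read 8725, 8477 and 7384 CPM in the first-set controls and 9219, 7672 and 8443 CPM in the first-set sko libraries. It read 2753, 2659 and 3009.6 CPM in the second-set controls and 2263, 1433 and 1525 CPM in the second-set sko libraries. Its difference was 0.68 ± 0.20 (SE, adjusted p = 0.0258). The second-set change was -0.27 among libraries without DRB, with 1 sko library, and -1.04 among those with DRB, with 1 control. Bmp15, its partner, fell in both (-0.37 ± 0.14 SE, adjusted p = 0.0325 and -0.72 ± 0.14 SE, adjusted p = 5.17e-04). Of 24 maternal effect genes, whose products the early embryo needs (medians -0.47 and -0.40), 16 fell in the first set and 13 in the second, 12 of them in both. Those that fell numbered 16, 17 and 10 in the first set and 13, 13 and 14 in the second under TMM, RLE and library size alone. Zar1, an RNA-binding protein of this group, fell by more in the first set (difference -1.02 ± 0.19 SE, adjusted p = 0.00149), while Nlrp5, of the subcortical maternal complex, rose in the first set only (difference 1.19 ± 0.25 SE, adjusted p = 0.0045).

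Among 16 oocyte markers (medians 0.03 and -0.46) the called differences were all more positive in the first set, 9, 4 and 11 in number under TMM, RLE and library size alone. Under TMM 5 fell in the first set and 10 in the second. Ddx4, a helicase of germ cells, read 64.9, 57.2 and 40.6 CPM in the first-set controls and 207, 169.6 and 187 CPM in the first-set sko libraries. It read 106, 92.1 and 71.04 CPM in the second-set controls and 109.7, 97.3 and 98.01 CPM in the second-set sko libraries, and its difference was 1.49 ± 0.22 (SE, adjusted p = 1.79e-04). Of 18 oocyte transcription factors (medians 0.34 and -0.03), 7 rose and 4 fell in the first set and 6 rose and 7 fell in the second. In both sets 5 rose and 4 fell. Tbpl2, the TATA-binding protein of the oocyte, rose in the first set only (difference 1.24 ± 0.24 SE, adjusted p = 0.00212), and Gtf2a1l, a germ cell form of TFIIA, changed in opposite directions (difference 1.153 ± 0.19 SE, adjusted p = 5.30e-04). The second-set call of Gtf2a1l was lost in 5 of 23 alternatives.

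Of 20 genes of early meiotic prophase (medians 0.18 and -0.09), 6 rose and 6 fell in the first set and 6 rose and 5 fell in the second. In both sets 3 rose and 3 fell. In the first set 9 rose and 3 fell with library size alone and 6 rose and 6 fell with RLE. Smc1b, a meiotic cohesin, rose in the first set and fell in the second (difference 1.48 ± 0.24 SE, adjusted p = 4.69e-04), and Hormad1, of the chromosome axis, fell by more in the first (difference -1.099 ± 0.24 SE, adjusted p = 0.00545). The second-set call of Hormad1 (-0.49 ± 0.18 SE, adjusted p = 0.0387) was lost in 14 alternatives. Of 39 genes of meiotic arrest and maturation (medians -0.17 and -0.19), 15 fell in the first set and 12 in the second, 10 in both. Those that rose in the first set numbered 3, 2 and 8 under TMM, RLE and library size alone. Bub1b, a kinase of the spindle checkpoint, fell by more in the first set (difference -1.27 ± 0.20 SE, adjusted p = 4.09e-04). Wee1, which inhibits CDK1, rose in the first set and fell in the second (difference 1.28 ± 0.29 SE, adjusted p = 0.00675). Its first-set groups overlapped, and the call of its first-set change (0.51 ± 0.20 SE, adjusted p = 0.0381) was lost in 12 and that of its second-set change in 5 of 23 alternatives.

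Of 34 genes of mRNA storage and translational control (medians -0.27 and -0.05), 9 rose and 14 fell in the first set, and 6 rose and 8 fell in the second. In the first set 11 rose and 10 fell with library size alone and 9 rose and 16 fell with RLE. The difference was more positive in the first set for 4, 3 and 5 genes and in the second for 9, 10 and 4 under TMM, RLE and library size alone, so the larger side changed with scaling. Lsm14b, of the storage granules, read 24.96, 31.04 and 39.1 CPM in the first-set controls and 23.9, 24.97 and 25.3 CPM in the first-set sko libraries. It read 139, 123 and 141 CPM in the second-set controls and 291, 424 and 296 CPM in the second-set sko libraries, a difference of -1.61 ± 0.23 (SE, adjusted p = 1.22e-04). In this list 3 increases and 4 decreases were limited to the first set. The decreases, named after their values were seen, included the decapping factors Dcp1a (difference -0.55 ± 0.17 SE, adjusted p = 0.0398) and Dcp2 (difference -0.72 ± 0.18 SE, adjusted p = 0.014). The others were Cpeb1, which binds polyadenylation elements (difference -0.62 ± 0.19 SE, adjusted p = 0.0409), and Ybx1, an RNA-packaging protein (difference -0.78 ± 0.19 SE, adjusted p = 0.00946). Dcp1a and Cpeb1 lay near the threshold.

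Of 37 G-quadruplex helicases and binding proteins (medians 0.05 and 0.16), 7 rose and 11 fell in the first set and 8 rose and 4 fell in the second. In the first set 11 rose and 8 fell with library size alone and 6 rose and 12 fell with RLE. Differences more positive in the first set numbered 1, 0 and 3, and in the second 7, 10 and 4, under TMM, RLE and library size alone. Wrn, the helicase of Werner syndrome, rose in the second set only (difference -0.84 ± 0.16 SE, adjusted p = 0.00222), and Ddx3x, a helicase of translation, fell in the first set only (difference -0.90 ± 0.17 SE, adjusted p = 0.002). The second-set rise of Ddx3x (0.32) was called in 6 of 23 alternatives, where its changes count as opposite if the first-set fall is called too. Taf15, an RNA-binding protein, changed in opposite directions (difference -1.81 ± 0.37 SE, adjusted p = 0.00326). Srsf1, a splicing factor, fell in the first set (-1.24 ± 0.17 SE, adjusted p = 9.96e-06), and its difference (-0.96 ± 0.25 SE, adjusted p = 0.0152) was lost in 5 alternatives.

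Of 39 elongation factors (medians -0.10 and 0.10), 9 rose and 12 fell in the first set and 7 rose and 4 fell in the second. In both sets 5 rose and 4 fell, against 12.3% each way over all genes. In the first set 12 rose and 8 fell with library size alone and 7 rose and 13 fell with RLE. Ccnt1, the cyclin of P-TEFb, the target of DRB, read 17.9, 14.5 and 15.5 CPM in the first-set controls and 73.9, 65.7 and 68.2 CPM in the first-set sko libraries. It read 10.04, 11.7 and 10.8 CPM in the second-set controls and 20.2, 17.8 and 15.3 CPM in the second-set sko libraries, rising by more in the first set (difference 1.36 ± 0.20 SE, adjusted p = 2.25e-04), and overlaps a gene on the opposite strand. Its kinase gene Cdk9 rose in the first set (2.32 ± 0.39 SE, adjusted p = 6.52e-05) and had 0.59 ± 0.33 (SE, adjusted p = 0.178) in the second, but the difference (1.74 ± 0.51 SE, adjusted p = 0.029) was lost in 12 alternatives. Cdk9 overlaps AL772271.1 and AL772271.4 on its own strand, so its value is uncertain. Iws1, which links elongation to mRNA export, fell in the first set only (difference -0.78 ± 0.16 SE, adjusted p = 0.00415). Of 25 genes that process R-loops (medians 0.04 and -0.02), 6 rose and 5 fell in the first set and 4 rose and 5 fell in the second. As shares these are 24%, 20%, 16% and 20%, near those over all genes (24.6%, 22.3%, 18.1% and 19%). In the first set 10 rose and 3 fell with library size alone and 5 rose and 6 fell with RLE. Of 39 DNA damage response genes (medians -0.34 and -0.19), 20 fell in the first set and 17 in the second, 16 in both. Those that fell numbered 20, 22 and 12 in the first set and 17, 14 and 15 in the second under TMM, RLE and library size alone. Topbp1, a checkpoint scaffold, rose in the first set only (difference 1.17 ± 0.18 SE, adjusted p = 2.79e-04), and Rpa3, which binds single-stranded DNA, fell there only (difference -1.003 ± 0.21 SE, adjusted p = 0.00387).

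Of 22 metallothionein and zinc homeostasis genes (medians 0.38 and -0.46), 7, 7 and 8 were more positive in the first set under TMM, RLE and library size alone and 2, 2 and 1 more positive in the second. Slc30a2, a transporter that exports zinc from the cytosol, rose in the first set only (difference 2.06 ± 0.37 SE, adjusted p = 0.00108), and Slc30a6, of the same family, changed in opposite directions (difference 2.35 ± 0.43 SE, adjusted p = 0.00129). Of 31 heat shock and stress genes (medians 0.23 and -0.01), 12 rose and 8 fell in the first set and 3 rose and 5 fell in the second. In the first set 14 rose and 5 fell with library size alone and 9 rose and 9 fell with RLE. Ddit4, an inhibitor of mTOR signalling, rose in the second set only (difference -2.33 ± 0.42 SE, adjusted p = 0.00129). Sqstm1, the autophagy receptor p62, rose in the first set only (difference 1.35 ± 0.25 SE, adjusted p = 0.0018), with an overlapping gene on the opposite strand. Of 43 chromatin regulators (medians -0.28 and -0.18), 12 rose and 17 fell in the first set and 10 rose and 10 fell in the second. In both sets 6 rose and 9 fell. In the first set 15 rose and 13 fell with library size alone and 11 rose and 20 fell with RLE. Kdm1b, a histone demethylase needed for maternal imprints, rose by more in the first set (difference 1.14 ± 0.21 SE, adjusted p = 0.00168), and Kdm4a, another demethylase, rose in the second set only (difference -1.78 ± 0.37 SE, adjusted p = 0.00331).

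Of 84 ribosomal protein genes (medians -0.43 and -0.22), 44 fell and 6 rose in the first set and 22 fell and 3 rose in the second, 20 falling in both. As shares, 52.4% fell and 7.14% rose in the first set (all genes 22.3% and 24.6%). In the second set 26.2% fell and 3.57% rose (all genes 19% and 18.1%). Those that fell in the first set numbered 44, 50 and 28 and in the second 22, 19 and 14 under TMM, RLE and library size alone. The shares over all genes given here are those with TMM, so the counts under the other scalings have no like share beside them. Whether ribosomal genes fell more often than all genes under those scalings is not shown. Rpl17 read 1277, 1226 and 1354 CPM in the first-set controls and 533, 573 and 572 CPM in the first-set sko libraries. It read 153, 168 and 175 CPM in the second-set controls and 148, 177 and 174 CPM in the second-set sko libraries, so its fall was limited to the first set (difference -1.146 ± 0.15 SE, adjusted p = 6.69e-05). Rpl10l, a testis form, was almost absent from the first set (6 counts in 3 controls), and its difference rests on them. Of 38 proteasome genes (medians -0.26 and -0.20), 18 fell in the first set and 11 in the second. Psmd13 rose in the first set only (difference 1.43 ± 0.32 SE, adjusted p = 0.00565) but overlaps Sirt3 on the opposite strand, and Psmb5 had 1.103 ± 0.28 (SE, adjusted p = 0.015), lost in 8 alternatives. Psmb5 overlaps Mir686 on its own strand. Of 85 nuclear genes of oxidative phosphorylation (medians -0.17 and -0.16), 27 fell and 8 rose in the first set, and 16 fell and 5 rose in the second. In the first set 14 rose and 16 fell with library size alone and 7 rose and 31 fell with RLE, and 1 of the 85 was an increase limited to that set.

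Of 14 interferon response genes (medians 0.53 and -0.21), 5 rose and 4 fell in the first set and 3 rose and 5 fell in the second. In both sets 3 rose and 4 fell. Of 15 genes of zygotic genome activation (medians 1.34 and 0.40), 7 rose and 2 fell in the first set and 3 rose and 2 fell in the second. Sp110, a nuclear body protein of this list, rose in the second set only, but its difference (-0.57 ± 0.18 SE, adjusted p = 0.0389) was lost in 13 alternatives. Of 31 replication-dependent histone genes, whose transcripts mostly lack polyA tails (medians -0.51 and -0.32), 3 fell in the first set and 6 in the second. Hist1h2ba, a germ cell H2B variant, had a difference of -2.03 ± 0.65 (SE, adjusted p = 0.0456), lost in 12 alternatives.

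Markers of other cells were followed beside these results. Of 20 granulosa and cumulus markers 15 were tested (medians 0.59 and 0.78), 6 rising and 1 falling in the first set, and 5 rising and 1 falling in the second. Their summed level was 0.00335 to 0.00395% of counts in first-set controls and 0.00884 to 0.00958% in first-set sko, and 0.00778 to 0.0104% and 0.0119 to 0.0156% in the second set. The defining granulosa genes Amh and Foxl2 had at most 6 counts in any of the 12 libraries, and Amhr2 at most 16. Fshr, the granulosa receptor for follicle-stimulating hormone, read 0.5995, 0.396 and 0.373 CPM in the first-set controls and 46.4, 49.6 and 49.7 CPM in the first-set sko libraries. It read 2.04, 0.226 and 0.821 CPM in the second-set controls and 23.4, 11.9 and 17.5 CPM in the second-set sko libraries, rising in both sets, with a difference of 2.42 ± 0.64 (SE, adjusted p = 0.017) that was lost in 7 alternatives. Fshr is part of the summed level above, which was not taken without it. That sum therefore does not show a rise across the markers. Kitl, the granulosa ligand of Kit, rose in the first set only (difference 1.08 ± 0.25 SE, adjusted p = 0.00761). Of 16 theca and stroma markers 7 were tested (medians 0.60 and -0.51), 2 rising and 1 falling in the first set, and 1 rising and 1 falling in the second, with Insl3 at 0 counts in every library. Of 9 tested immune, endothelial and blood markers (medians 1.02 and -0.61), 3 rose and 2 fell in the first set, and 2 rose and 4 fell in the second. The part of other cells in the results was not tested.

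C1qb, a complement subunit among the immune markers, read 65.5, 54.3 and 51.8 CPM in the first-set controls and 59.98, 60.7 and 55.7 CPM in the first-set sko libraries. It read 20.5, 18.6 and 22.5 CPM in the second-set controls and 11.4, 8.55 and 10.3 CPM in the second-set sko libraries, a decrease limited to the second set (difference 1.05 ± 0.20 SE, adjusted p = 0.00218). Of other leukocyte and endothelial genes, Lyz2 had at most 8 counts and Cdh5 at most 1 in any of the 12 libraries. These do not stand for the whole list. Of its 9 tested members, 3 rose and 2 fell in the first set, and 2 rose and 4 fell in the second.

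The classes were read in a pair of other experiments that share no library with the 12. In germinal vesicle (GV) oocytes labelled cPDS for 12 h, cPDS being a ligand of RNA G-quadruplexes, against 3 GV controls, 23.4% of 16115 tested genes were higher and 27.4% lower. Of shared increases tested there, 33.6% were higher and 17.6% lower with cPDS, and of shared decreases 24.9% and 41.4%. Increases limited to the first set gave 23.97% higher and 29.8% lower. Genes that rose in the first set and fell in the second gave 16.9% higher and 37.3% lower, and those with the reverse order 39.1% and 24.6%. Decreases limited to the first set gave 40.1% higher and 32.6% lower. Increases limited to the second set gave 34.3% each way, and decreases limited to it 20.2% higher and 38.6% lower. Among the 15474 genes tested in both fits, 24.2% were higher and 28.3% lower, which are the shares to set beside these. The classes also differed in level. The median in first-set controls was 3.04 CPM for shared increases and 63.1 CPM for decreases limited to the first set, against 4.47 CPM over all tested genes. A gene's level bears on whether a change is detected, and its part was not tested. These shares are descriptions without a test.

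In the libraries labelled Dhx36 Trim21 at 3 h, against 3 controls, 6.26% of 14191 tested genes were higher and 5.23% lower. Trim21 is used to degrade a protein bound by an antibody, and the Dhx36 transcript was lower there too (-1.99 ± 0.18 SE, adjusted p = 1.43e-05). Of shared increases tested there, 12.5% were higher and 5.97% lower, and of shared decreases 4.81% and 7.28%. Increases limited to the first set gave 13.2% higher and 4.50% lower, and decreases limited to it 4.66% and 9.59%. Increases limited to the second set gave 6.74% and 7.77%, and decreases limited to it 9.73% and 5.31%. Genes that rose in the first set and fell in the second gave 9.48% and 7.76%, and those with the reverse order 5.88% and 10.3%. Among the 13860 genes tested in both fits, 6.26% were higher and 5.06% lower. These shares, too, are descriptions without a test. Cdc5l, which changed in opposite directions between the sets, fell in this experiment (-2.90 ± 0.31 SE, adjusted p = 6.18e-05). Crnkl1 was not called there (-0.16 ± 0.09 SE, adjusted p = 0.321).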

How the data were processed

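Raw counts of reads per gene were deposited by the authors, per the file headers in the layout of featureCounts. Named in the submitters' processing notes are the build mm9 and, among others, the tools HISAT2 2.1.0, STAR 2.5.2b and featureCounts 2.0.1 (no role is given for each). How reads shared by several genes were counted, and the strand setting, are not stated. The 12 libraries were fitted together with edgeR 4.0.16 in R 4.3.3 (filterByExpr with a minimum count of 10, TMM factors, quasi-likelihood test), with 1 term per set and genotype and 1 for DRB, leaving 7 residual degrees of freedom. The SE is the absolute log2 change over the square root of F. CPM use TMM-scaled library sizes. The cPDS and Trim21 libraries were fitted apart. Trim21 features were matched by identical exons.

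Genes named for a class had informative symbols, a mean log2 CPM (prior count 2) of at least 3 in each set and no overlap of groups where called. They were the 6 shared and 6 opposite genes each way with the largest smaller change of the sets, and the 5 each way limited to a set with the largest difference and under 0.3 (log2) in the other set. Added were the 2 members of each of 26 gene lists with the smallest p among called differences, without those conditions on level and overlap, and 10 genes in every case (Dhx36, Mt1, Mt2, Ddx6, Fshr, Plac1, Zp3, Gdf9, Cdk9 and Ccnt1). Mt4, Aen, Bax, Zp1, Zp2, Bmp15, Dcp1a, Dcp2, Cpeb1, Ybx1, Taf15 and Slc30a6, list members outside this rule, were named after their values were seen. The members and lists were chosen with earlier results of these data known. Results for some items are not reported here. The fit was tested on simulated data. Alternatives were RLE factors, library size alone, DESeq2 1.42.0, other filters and thresholds, other sets of libraries and leaving out each library.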

Additional observations from a re-analysis of the deposited data

Results flagged for a closer look

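The sko change differed between the sets for each of 78 named genes, by the test of the difference itself (edgeR, adjusted p under 0.05 over all genes tested). Values are log2, first set minus second set. Rising in the first set and falling in the second were Aqr 1.04, Cd7 2.40, Cdc5l 3.55, Crnkl1 2.63, Eif1a 2.62, Gpr19 1.91, Gtf2a1l 1.153, Patl2 2.06 and Smc1b 1.48. Rising in the first set and falling in the second were Wee1 1.28 and Zbtb1 1.63. Falling in the first set and rising in the second were Agxt2l2 -1.52, Atp5c1 -1.16, Bfsp1 -2.98, Glce -1.36, Glmn -1.66, mt-Nd4 -1.92, mt-Nd6 -2.17 and Ubqln1 -1.66. Rising in the first set only were Btg2 2.67, Cct6a 2.87, Cd9 1.197, Cdk9 1.74, Ddx4 1.49, Kitl 1.08, Lmf1 2.35, Mdm2 1.79 and Nlrp5 1.19. Rising in the first set only were Ppif 2.29, Psmb5 1.103, Psmd13 1.43, Rpl10l 3.53, Slc30a2 2.06, Sqstm1 1.35, Tbpl2 1.24, Topbp1 1.17 and Uqcrc1 2.64. Rising in the first set only was Zfp707 3.07. Falling in the first set only were Ddx3x -0.90, Iws1 -0.78, Mtss1 -1.55, Nhedc1 -1.82, Ptprj -1.49, Rpa3 -1.003, Rpl17 -1.146, Sap30 -1.52 and Srsf1 -0.96. Falling in the first set only was Zfyve9 -1.45. Rising in the second set only were Arntl2 -2.05, Dcdc2a -2.37, Ddit4 -2.33, Fam124a -1.95, Hist1h2ba -2.03, Kdm4a -1.78, Lsm14b -1.61, Nubpl -1.80 and Pla2g15 -2.21. Rising in the second set only were Sp110 -0.57 and Wrn -0.84. Falling in the second set only were C1qb 1.05, Ctsb 1.45, Cxcr3 1.42, Gdf9 0.68, Htatip2 1.42, Tex19.1 1.27 and Znrf3 1.58. Rising in both sets but by unequal amounts were Ccnt1 1.36, Ddx6 -1.48, Fshr 2.42, Kdm1b 1.14, Kera 1.03, Mt1 3.51 and Plac1 1.11. Falling in both sets but by unequal amounts were Bub1b -1.27, Folr4 -1.14, Hormad1 -1.099, Zar1 -1.02 and Zp3 0.54. The value of Rpl10l rests on 6 counts in the first-set controls, and its first-set call was lost in 3 of 22 alternatives. Each group held 3 libraries, so no search for single deviating libraries within a group was made.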

How the results depend on the processing

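RLE factors, library size alone, DESeq2 (called differences 2988), no filter, a filter of at least 1 CPM in each set, and no DRB term left the totals of called genes, shared, limited and opposite changes within 1.5 times those reported, as did separate fits of each set for the calls in each set, the shared and the opposite changes. Counts by direction moved further with scaling: decreases limited to the first set numbered 570, 129 and 729 with RLE, library size alone and DESeq2 (reported 375), and increases limited to the second set 130 and 349 with the last 2 (reported 215). A threshold of adjusted p under 0.01 gave 946 called differences, 2691 shared changes, 490 changes limited to the first set, 191 changes limited to the second set and 70 opposite changes. A requirement of at least a 2-fold change gave 1340 called differences, 4168 first-set calls, 3144 second-set calls, 1826 shared changes, 638 changes limited to the first set, 267 changes limited to the second set and 47 opposite changes. Inclusion of the shallow pair of second-set libraries gave 1300 called differences, 668 changes limited to the first set, 251 changes limited to the second set and 88 opposite changes. Leaving out the DRB libraries gave 3766 second-set calls, 2653 shared changes and 297 changes limited to the second set. Keeping only the DRB libraries of the second set gave 1019 called differences, 3757 second-set calls, 561 changes limited to the first set, 189 changes limited to the second set and 91 opposite changes. Leaving out each library in turn gave called differences 1139 to 2510; first-set calls 6976 to 7962; second-set calls 3652 to 6447; shared changes 2566 to 4013; changes limited to the first set 614 to 1188; changes limited to the second set 222 to 497; opposite changes 103 to 227. Without c_DRB replicate 3 the counts were 3652 second-set calls, 2566 shared changes, 263 changes limited to the second set. Without rhau_sko replicate 5 the counts were 1139 called differences, 3981 second-set calls, 614 changes limited to the first set, 222 changes limited to the second set, 103 opposite changes. No called change or difference of the 92 genes followed through these alternatives reversed its direction. The called differences of Zp3, Plac1, Sp110, Hist1h2ba, Cdk9, Gdf9, Psmb5, Fshr, Cxcr3, Kera, Srsf1 and Lmf1 were lost in 4 to 17 of 22 or 23 alternatives. Not followed gene by gene were Mt4, Aen, Bax, Zp1, Zp2, Bmp15, Dcp1a, Dcp2, Cpeb1, Ybx1, Taf15, Slc30a6, Rbm22 and Prpf19, so how far their calls hold was not checked. Among opposite genes, the second-set call was lost in 6 of 23 alternatives for Agxt2l2 and Aqr, and in 5 for Glmn, Gtf2a1l and Wee1. It was lost in 3 for Eif1a, Glce, Gpr19 and Smc1b. Among genes limited to a set, the other set was called too in 6 alternatives for Ddx3x, Lsm14b and Uqcrc1. It was called in 5 for Kdm4a and Rpl10l and in 4 for Psmd13. With 3 libraries per group, small changes were less detectable, and genes with few counts in 1 group carry uncertain fold changes.

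In the GV and Trim21 experiments the labels give both groups the same replicate numbers. With the replicate block the calls were 7559 for cPDS (without it 8191) and 1762 for Trim21 (1630). Same-numbered libraries shared little deviation from their group means (correlations -0.06 to -0.03 for cPDS and -0.05 to 0.09 for Trim21), so the numbers are not read as pairs. Leaving out each library gave 7012 to 8066 cPDS calls and 928 to 1936 Trim21 calls, with 1043 and 928 Trim21 calls without Trim21_3h replicates 1 and 3. No paired analysis was possible for the 12 libraries because control and sko carry different numbers.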

Other observations

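Splicing genes of the Prp19 complex and its partners were listed after the values of Cdc5l, Crnkl1 and Aqr had been seen, so the list is a description without a test. Of 17 genes, 7 rose and 4 fell in the first set, and 1 rose and 4 fell in the second; over all tested genes 24.6% rose and 22.3% fell in the first set, and 18.1% rose and 19% fell in the second. The difference was called for 4, each more positive in the first set, including Rbm22, a zinc finger splicing factor (0.68 ± 0.18 SE, adjusted p = 0.0187), while the core ubiquitin ligase Prpf19 had a difference of -0.36 ± 0.71 (SE, adjusted p = 0.803). The median difference over the list was -0.09, below that of all genes (0.07).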
